A study of Mus musculus with 15 samples.

Results

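Genes that mark macrophages were followed in the mouse trigeminal ganglion (TG), the ganglion that holds the cell bodies of corneal sensory nerves. The 10 genes were Cx3cr1, Csf1r, Itgam, Adgre1, Aif1, Cd68, Mrc1, C1qa, C1qb and C1qc, named as known markers with earlier results of these data in view, and all 10 were found among the 55573 genes counted. RNA was sequenced from 15 TG of male CD1 mice, 10 weeks old, with 5 TG in each of 3 groups called vehicle, RvD6-standard and RvD6-isomer. In every mouse, vehicle included, the epithelium and anterior stroma of the right cornea had been removed within a circle of 2 mm, the eye had been treated 3 times a day for 12 days, and the TG of the right side was taken, so no uninjured TG was part of the design. RvD6 is resolvin D6, a lipid mediator made from docosahexaenoic acid, and RvD6-isomer is a stereoisomer of it that the study calls RvD6si.

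Macrophages live in sensory ganglia around the neuronal cell bodies, in contact with satellite glia, and along fibres and vessels. They take up debris, sense colony-stimulating factor and fractalkine through receptors on their surface, and are a main source of C1q, the recognition molecule of the classical complement pathway. Injury of a peripheral axon is known to change their number and state in the ganglion. In RNA from a whole TG, fewer cells of a type and less RNA per cell cannot be told apart.

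Total counts ranged from 4125962 to 9903396 per library. Some libraries stood apart by genes of other cells. The summed TPM, a level corrected for gene length and library size, of 15 neutrophil and marrow precursor genes was 330 to 1560 in vehicle, 1930 to 6572 in RvD6-standard, 160 to 379 in 4 RvD6-isomer libraries and 6282 in RvD6-isomer replicate 15. Vehicle replicate 4 held the 1560. Skeletal muscle genes summed to 1960 and 2783 TPM in RvD6-standard replicates 8 and 9 and to 70.0 to 443 TPM in the other 13 libraries. Values below are from all 15 samples unless libraries are named as left out, and the pair of vehicle replicate 4 and RvD6-isomer replicate 15, and the pair of RvD6-standard replicates 8 and 9, were each left out after their values were seen. No source used here names a litter, batch or pairing of the mice, and p-values measure only the spread between these samples.

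All 10 genes passed the filter on low counts, which kept 16567 genes, and none passed the test for a difference between groups. In the quasi-likelihood test of edgeR, with Benjamini-Hochberg adjustment over all genes tested, 0 of 10 were called for RvD6-isomer against vehicle, where 0.67% of all genes were called. For RvD6-standard against vehicle 0 of 10 were called against 0% of all genes, although 2256 genes (13.6%) had an unadjusted p below 0.05 and DESeq2 called 369 (1.92%). For RvD6-isomer against RvD6-standard 0 of 10 were called against 0.235% of all genes. The closest to the threshold were Cd68 and Aif1. Cd68 was 2.73-fold higher in RvD6-standard than in vehicle, with every sample above every vehicle sample, as in 2.25% of all genes. Aif1 was at 0.394 times the vehicle level in RvD6-isomer.

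Members with an unadjusted p below 0.05, which is not a call, were also listed. For RvD6-isomer against vehicle they were 1 higher gene, Cx3cr1, where 8.69% of all genes were higher with such a p, and 1 lower gene, Aif1, where 7.3% were lower. For RvD6-standard against vehicle they were 3 higher genes, Cx3cr1, Cd68 and Adgre1, against 7.63% of all genes. For RvD6-isomer against RvD6-standard they were 4 lower genes, Aif1, Cd68, C1qb and C1qc, against 4.64%. The median log2 fold change of the 10 members was -0.09, 0.40 and -0.52 in the same order, beside 0.02, 0.02 and -0.00 over all genes. The first pair of comparisons shares the 5 vehicle libraries, and each lipid enters the third, so the values stand side by side and are not separate evidence.

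**Figure D1:**
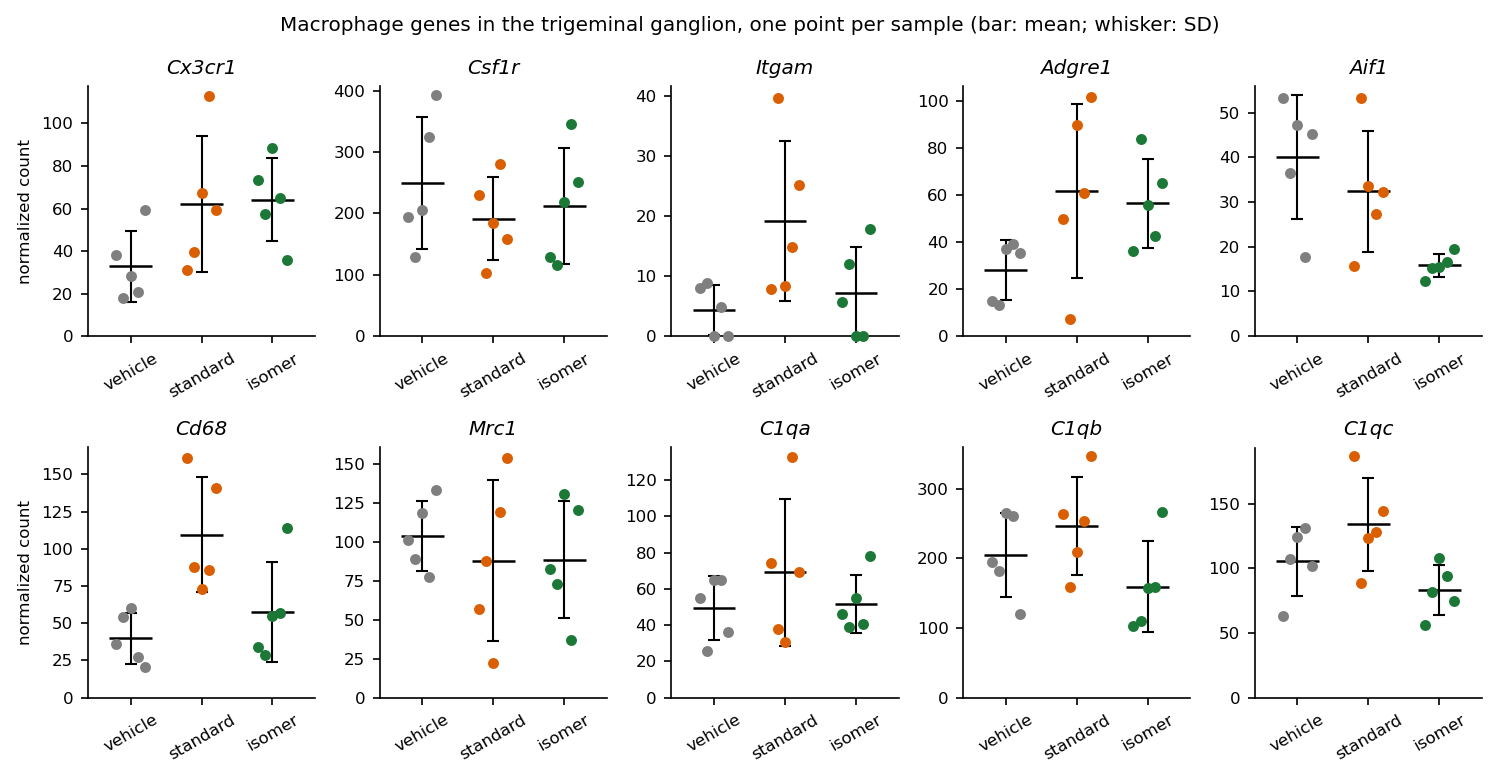
Normalized count (counts divided by the size factor of the library, linear axis from 0) of each of the 10 macrophage genes, with 1 point per TG, a bar at the mean of 5 samples and a whisker of 1 SD, which is cut where it would pass below 0. The RvD6-standard points of Cd68 lie above all vehicle points (72.9 to 161 against 20.6 to 60.2), the RvD6-isomer points of Aif1 lie close together at 12.4 to 19.5, and Itgam sits near 0 in most libraries.

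Per length, the members covered a wide range of levels. C1qb was highest with 62.1 ± 19.4 TPM (mean and SD over all 15 samples), and Itgam was lowest with 0.685 ± 0.732 TPM. Between them lay C1qc with 18.5 TPM, Cd68 with 18.3 TPM, C1qa with 18.2 TPM, Csf1r with 12.6 TPM, Aif1 with 6.37 TPM, Adgre1 with 5.07 TPM, Mrc1 with 4.95 TPM and Cx3cr1 with 4.01 TPM. Only 3 neighbours in this order differed by more than the larger of their SDs. C1qb exceeded C1qc in 15 of 15 samples, Csf1r exceeded Aif1 in 12 of 15 and Cx3cr1 exceeded Itgam in 15 of 15. The order of the others is therefore not resolved, and Cd68 changes its place between groups, from 10.2 TPM in vehicle to 27.7 TPM in RvD6-standard.

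**Figure D2:**
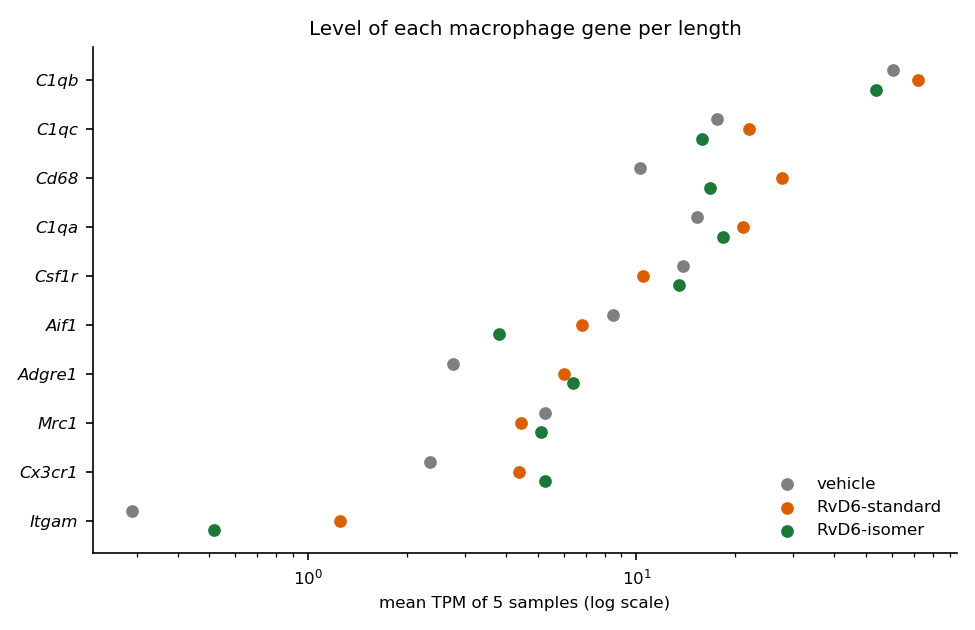
Mean TPM of 5 samples per group (log axis) for each macrophage gene, ordered by the mean over all 15 samples. C1qb leads in all 3 groups (60.6, 72.0 and 53.7 TPM in vehicle, RvD6-standard and RvD6-isomer) and Itgam is last.

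The stretch before the start of a gene is where factors bind that set its activity in a cell type. PU.1, encoded by Spi1, is the factor that myeloid cells depend on, and its sites contain the core GAGGAA. Of the 10 members, 7 had an entry in a table of promoters from RefSeq (build GRCm38.p6); Adgre1, C1qa and Csf1r had none. The 250 bases before the start held GAGGAA on either strand in 6 of the 7 (Mrc1, C1qb, C1qc, Itgam, Cd68 and Aif1), and in 23.3% of 32851 promoters of that length. In Cx3cr1 these letters were absent from the window. A match is a description of the letters and not a site. The 3 windows below belong to the member with the highest level (C1qb, chr4:136886201-136886450) and to the pair with the smallest p-values (Cd68, chr11:69666171-69666420, and Aif1, chr17:35176053-35176302), all on the minus strand and written 5′ to 3′ with the match in capitals, as GAGGAA or, for a match on the other strand, TTCCTC.
C1qb: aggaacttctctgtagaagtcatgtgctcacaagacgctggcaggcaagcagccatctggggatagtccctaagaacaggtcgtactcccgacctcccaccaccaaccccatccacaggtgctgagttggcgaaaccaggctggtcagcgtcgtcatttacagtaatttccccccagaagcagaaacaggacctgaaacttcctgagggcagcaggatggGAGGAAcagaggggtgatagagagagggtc
Cd68: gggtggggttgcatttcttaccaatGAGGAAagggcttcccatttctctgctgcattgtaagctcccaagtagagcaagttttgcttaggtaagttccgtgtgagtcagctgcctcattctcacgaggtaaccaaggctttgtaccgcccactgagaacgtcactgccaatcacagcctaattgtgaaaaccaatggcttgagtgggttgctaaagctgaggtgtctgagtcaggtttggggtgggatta
Aif1: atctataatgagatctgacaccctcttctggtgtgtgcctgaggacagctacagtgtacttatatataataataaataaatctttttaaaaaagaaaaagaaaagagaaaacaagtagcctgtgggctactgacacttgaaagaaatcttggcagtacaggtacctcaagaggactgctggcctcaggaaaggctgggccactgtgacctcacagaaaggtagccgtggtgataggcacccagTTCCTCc

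Cx3cr1 encodes the receptor for fractalkine, a ligand that neurons make, and is high in resident macrophages of nervous tissue. Its normalized counts were 38.2, 17.8, 28.1, 20.7 and 59.2 in vehicle replicates 1 to 5, 31.3, 39.7, 67.3, 112.8 and 59.4 in RvD6-standard replicates 6 to 10, and 73.4, 57.5, 88.5, 65.2 and 35.8 in RvD6-isomer replicates 11 to 15. In each treated group 3 of 5 samples lay above every vehicle sample, and the ranges overlapped. The log2 fold change was 0.96 for RvD6-isomer against vehicle (SE 0.41, 95% interval 0.11 to 1.81, edgeR adjusted p = 0.249). For RvD6-standard against vehicle it was 0.90 (SE 0.41, edgeR adjusted p = 0.344), and without RvD6-standard replicates 8 and 9, the libraries rich in muscle genes, it was 0.37 (0.56 without replicate 9 alone). The lipids differed by 0.07 (95% interval -0.77 to 0.91), so a difference anywhere in that interval remains possible. Without RvD6-standard replicates 8 and 9 they differed by 0.59. The ligand gene Cx3cl1 had means of 33.5 ± 18.5, 39.6 ± 17.8 and 33.6 ± 8.11 normalized counts in vehicle, RvD6-standard and RvD6-isomer (SD, n = 5), and its log2 fold changes against vehicle were -0.00 for RvD6-isomer and 0.23 for RvD6-standard.

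Csf1r encodes the receptor that keeps macrophages alive through the ligands Csf1 and Il34. Its normalized counts ran from 128 to 393 in vehicle, 103 to 280.1 in RvD6-standard and 117 to 346 in RvD6-isomer, with medians of 205, 185 and 219. The 3 ranges lay over each other, and the log2 fold changes were -0.23 (95% interval -0.95 to 0.48) for RvD6-isomer and -0.40 (-1.12 to 0.32) for RvD6-standard against vehicle. Leaving out 1 library moved the first to between -0.49 (without RvD6-isomer replicate 14) and -0.00 (without vehicle replicate 5), and the second was -0.17 without vehicle replicate 5 and -0.63 without RvD6-standard replicates 8 and 9. Of the exons of Csf1r, 15.1% overlap Hmgxb3 on the opposite strand, and reads there were not counted. Il34 was the more abundant ligand transcript in each group (33.9, 30.8 and 40.8 TPM in vehicle, RvD6-standard and RvD6-isomer, against 2.23, 2.67 and 2.39 TPM for Csf1), and neither ligand passed the test in any comparison.

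Adgre1 encodes F4/80, an adhesion receptor used to stain mouse macrophages. Vehicle samples had 15.1, 13.4, 36.9, 39.4 and 35.4 normalized counts, RvD6-standard samples 50, 7.21, 89.7, 60.7 and 102, and RvD6-isomer samples 36.1, 83.9, 55.7, 42.4 and 65.0. In both treated groups 4 of 5 samples lay above every vehicle sample, and RvD6-standard replicate 7 lay below every one. The log2 fold change was 1.01 for RvD6-isomer (95% interval -0.06 to 2.08, edgeR adjusted p = 0.345) and 1.13 for RvD6-standard (0.05 to 2.20, edgeR adjusted p = 0.345).

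Itgam encodes CD11b, which pairs with the product of Itgb2 to form complement receptor 3. It had few reads: 11, 10, 0, 5 and 0 raw counts in vehicle, 10, 44, 6, 12 and 25 in RvD6-standard and 5, 15, 0, 0 and 11 in RvD6-isomer. A count of 0 allows up to 3 counts, so the libraries at 0 and those at 5 or 6 are not well told apart. The gene Gm49368 shares 68.7% of its exonic bases on the same strand, and reads in that stretch were assigned to neither, so the level is too low by an unknown part. Its log2 fold change against vehicle was 2.10 for RvD6-standard with an interval of -0.18 to 4.37. The partner Itgb2 had 15.9, 90.8, 59.4, 65.9 and 2.47 normalized counts in vehicle, 63.3, 155, 146, 129 and 158 in RvD6-standard, and 20.3, 24, 41.1, 25.9 and 192 in RvD6-isomer. RvD6-isomer replicate 15 was the highest of all 15 samples for Itgb2 while the other 4 isomer samples did not pass 41.1.

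Aif1 encodes Iba1, a calcium-binding protein tied to actin that is the usual stain for microglia and macrophages. Its normalized counts were 53.4, 36.5, 47.3, 17.7 and 45.2 in vehicle, 15.6, 53.2, 33.6, 27.3 and 32.2 in RvD6-standard, and 12.4, 15.2, 15.5, 16.6 and 19.5 in RvD6-isomer. Relative to its mean, this RvD6-isomer group had the smallest spread of any member (15.8 ± 2.56, against 40.0 ± 13.9 in vehicle, SD, n = 5), and 4 of 5 lay below every vehicle sample, with vehicle replicate 4 inside their range. Against vehicle this is a log2 fold change of -1.34 (SE 0.41, 95% interval -2.20 to -0.49, edgeR adjusted p = 0.111). Without vehicle replicate 4 and RvD6-isomer replicate 15 it was -1.61 (edgeR adjusted p = 0.130). When only genes with at least 10 counts in every sample were tested, which called 2.6% of them, the adjusted p became 0.0396 at the same fold change. RvD6-standard differed from vehicle by -0.32 (-1.15 to 0.50), and leaving out 1 library moved this to between -0.57 (without RvD6-standard replicate 7) and -0.15 (without RvD6-standard replicate 6). RvD6-isomer differed from RvD6-standard by -1.02 (-1.87 to -0.16, edgeR adjusted p = 0.459). The counts behind these values were 11 to 19 reads per RvD6-isomer library and 18 to 74 per vehicle library.

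Cd68 encodes a glycoprotein of lysosomes that is abundant in phagocytes. Vehicle samples had 36.1, 54.3, 60.2, 27.6 and 20.6 normalized counts, RvD6-standard samples 161, 87.4, 72.9, 85.5 and 141, and RvD6-isomer samples 33.9, 28.8, 54.8, 56.9 and 114. All 5 RvD6-standard samples were above all 5 vehicle samples, as in 2.25% of all genes, and Cd68 was the only member with such a separation. No member separated RvD6-isomer from vehicle (4.88% of all genes did) or the lipids from each other (1.74% did). Cd68 differed between RvD6-standard and vehicle by a log2 fold change of 1.45 (SE 0.40, 95% interval 0.61 to 2.29, edgeR adjusted p = 0.156). DESeq2 gave 1.47 with an adjusted p of 0.0272, or 0.00574 when only those 2 groups were fitted (3.31% of genes called), so the call depends on the tool. Leaving out vehicle replicate 4 and RvD6-isomer replicate 15 gave 1.35, and leaving out RvD6-standard replicates 8 and 9 gave 1.68. For RvD6-isomer against vehicle it was 0.52 (-0.32 to 1.35) with all samples and 0.13 without replicate 15 (0.03 without vehicle replicate 4 as well), which held 114 normalized counts against 28.8 to 56.9 in the other 4. RvD6-isomer was lower than RvD6-standard by -0.93 (-1.76 to -0.10, edgeR adjusted p = 0.494), and by -1.32 without vehicle replicate 4 and RvD6-isomer replicate 15 (edgeR adjusted p = 0.153).

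The 5 RvD6-standard libraries and RvD6-isomer replicate 15 had the highest normalized counts of Cd68 and the highest summed TPM of precursor genes. The order of single libraries differed. RvD6-standard replicate 7 had the highest precursor sum, 6572 TPM, and 87.4 normalized counts of Cd68, against 161 in replicate 6. RvD6-isomer replicates 13 and 14 had the lowest precursor sums, 160 and 195 TPM, and 54.8 and 56.9 normalized counts of Cd68. Of 15 neutrophil and marrow precursor genes, 15 had a positive log2 fold change in RvD6-standard against vehicle with an unadjusted p below 0.05, at a median of 2.5, while edgeR called 0 and DESeq2 called 1. Over all genes 7.63% were higher with such a p, and DESeq2 called 1.92%. Of 10 monocyte genes 9 were positive, with a median of 1.5, and their summed TPM was 254 to 740.2 in RvD6-standard, 73.5 to 256 in vehicle and 58.9 to 239 in RvD6-isomer, where replicate 15 held the 239. None of the 15 precursor genes and none of the 10 monocyte genes was at 0 throughout a group. Chil3, a chitinase-like protein of monocytes and neutrophils, was called lower in RvD6-isomer than in RvD6-standard (log2 fold change -3.27, SE 0.58, edgeR adjusted p = 0.0247), a call that was lost without RvD6-standard replicates 8 and 9 (-3.63, edgeR adjusted p = 0.104). Vehicle replicate 4, the vehicle library with the highest precursor and monocyte sums, had 27.6 normalized counts of Cd68, below the vehicle mean of 39.7. The part of neutrophils, their precursors and monocytes in the Cd68 values was not tested.

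**Figure D3:**
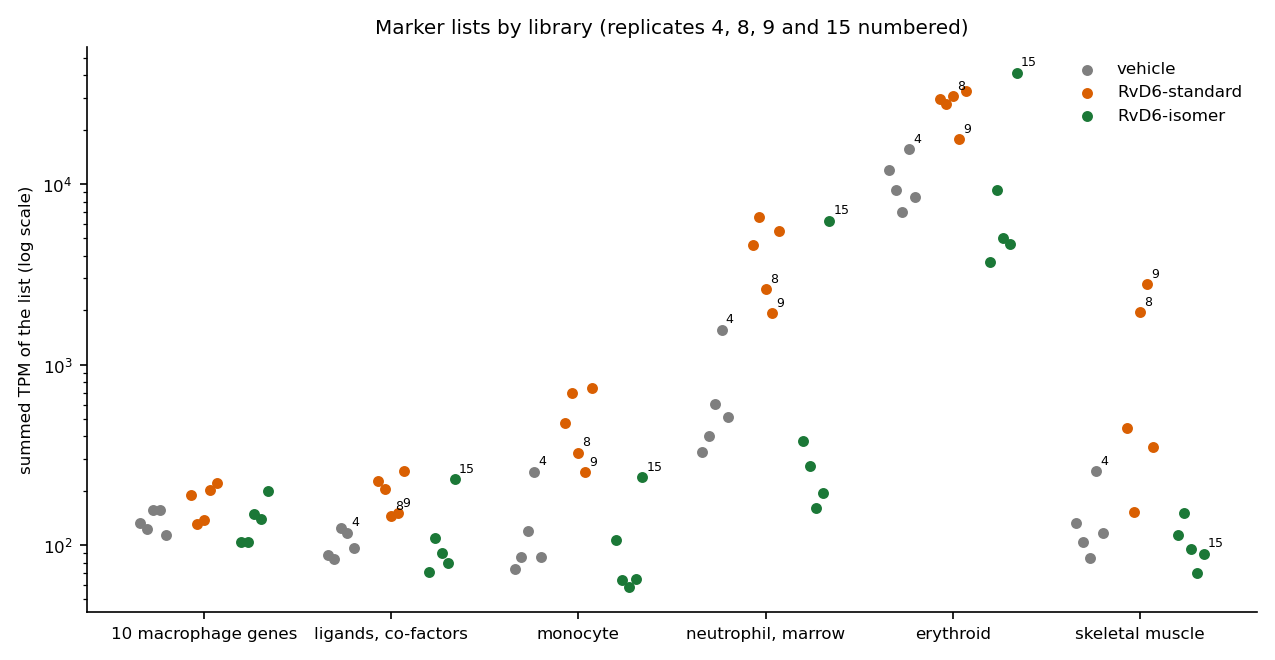
Summed TPM (log axis) of the 10 macrophage genes and of 5 other gene lists, with 1 point per library and replicates 4, 8, 9 and 15 numbered for the lists other than the macrophage genes. The macrophage sums of the groups overlap (114 to 157 in vehicle, 131 to 222 in RvD6-standard, 104 to 200 in RvD6-isomer), while neutrophil and marrow precursor sums separate RvD6-standard and RvD6-isomer replicate 15 from the rest.

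Mrc1 encodes CD206, the mannose receptor of perivascular and endoneurial macrophages. Its normalized counts were 77.7 to 133 in vehicle, 22.4 to 154 in RvD6-standard and 37.3 to 130.5 in RvD6-isomer, with medians of 100.9, 87.4 and 82.4. RvD6-standard spread the widest and covered the whole vehicle range. Mrc1 differed from vehicle by a log2 fold change of -0.24 (-1.08 to 0.61) for RvD6-isomer and -0.25 (-1.10 to 0.59) for RvD6-standard. Without RvD6-isomer replicate 14 the first was -0.04 and without replicate 13 it was -0.43. The second was -0.02 without RvD6-standard replicate 8 and -0.56 without replicate 10. Of 11 other tested genes of that cell type, 7 had a log2 fold change above 0 and 4 below 0 in RvD6-standard against vehicle, and the 4 with an unadjusted p below 0.05 were all higher. Over all genes 7.63% were higher with such a p. The summed TPM of the list was 60 to 84.8 in vehicle, 130.3 to 312 in RvD6-standard and 59.5 to 67.2 in RvD6-isomer without replicate 15, which had 251. Much of these sums came from Pf4 and Cbr2. The highest Pf4 value in RvD6-isomer was 205.7 TPM, and the highest Cbr2 value in RvD6-standard was 183 TPM. Cd163, Lyve1 and Stab1 had means of 2.165, 3.655 and 3.407 TPM in vehicle and 2.472, 3.35 and 3.105 TPM in RvD6-standard. edgeR called 0 of the 11 and DESeq2 called 1, Cd36, where it called 1.92% of all genes. Folr2, which was not tested, was at 0 in every RvD6-isomer library. The leading genes by level were Pf4 and Cbr2, and Pf4, which platelets also make, had a log2 fold change of 1.40 in RvD6-standard against vehicle (edgeR adjusted p = 0.260). Without vehicle replicate 4 and RvD6-isomer replicate 15, a choice made after seeing the data, it was 1.47 and was called (edgeR adjusted p = 0.025). In that setting 91 of all genes were called.

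C1q is built from the chains encoded by C1qa, C1qb and C1qc, which lie next to each other on the minus strand of chromosome 4 (GRCm38, 136880129 to 136898803). C1qb had 195, 182, 265, 261 and 120.1 normalized counts in vehicle, 264, 159, 209, 253 and 346 in RvD6-standard and 103, 110.2, 157, 159 and 267 in RvD6-isomer. C1qc had 62.7, 107, 124, 131 and 102 in vehicle, 187, 88.3, 123, 128 and 144 in RvD6-standard and 56.5, 81.5, 108, 94.2 and 74.8 in RvD6-isomer. C1qa ranged from 25.8 to 65.0 in vehicle, from 30.8 to 133 in RvD6-standard and from 39.1 to 78.0 in RvD6-isomer. The group means of all 3 chains were highest in RvD6-standard, and the highest sample of each was an RvD6-standard sample, but a different one for each chain: replicate 9 for C1qa, 10 for C1qb and 6 for C1qc.

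Against vehicle, no chain had an interval that left out 0. The log2 fold changes of C1qa, C1qb and C1qc were 0.06, -0.37 and -0.34 for RvD6-isomer and 0.47, 0.26 and 0.34 for RvD6-standard. Between the lipids, C1qb was lower in RvD6-isomer by -0.63 (-1.22 to -0.03, edgeR adjusted p = 0.531) and C1qc by -0.68 (-1.23 to -0.13, edgeR adjusted p = 0.436). For C1qa the difference was -0.41 (-1.24 to 0.41). None passed the adjusted test, and several of these values rest on 1 library. For RvD6-standard against vehicle C1qa was 0.09 without replicate 9, C1qb 0.10 without replicate 10 and C1qc 0.18 without replicate 6, each the sample with the highest count. For RvD6-isomer against vehicle C1qa was -0.13 and C1qb -0.63 without replicate 15, and C1qa was 0.18 without vehicle replicate 3. Between the lipids C1qa was -0.04 without RvD6-standard replicate 9, while C1qb ran from -0.88 to -0.47 and C1qc from -0.80 to -0.52 with each sample left out in turn. The ratio of C1qb to C1qc in TPM had medians of 3.54, 3.19 and 3.00 in vehicle, RvD6-standard and RvD6-isomer, and its ranges overlapped.

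**Figure D4:**
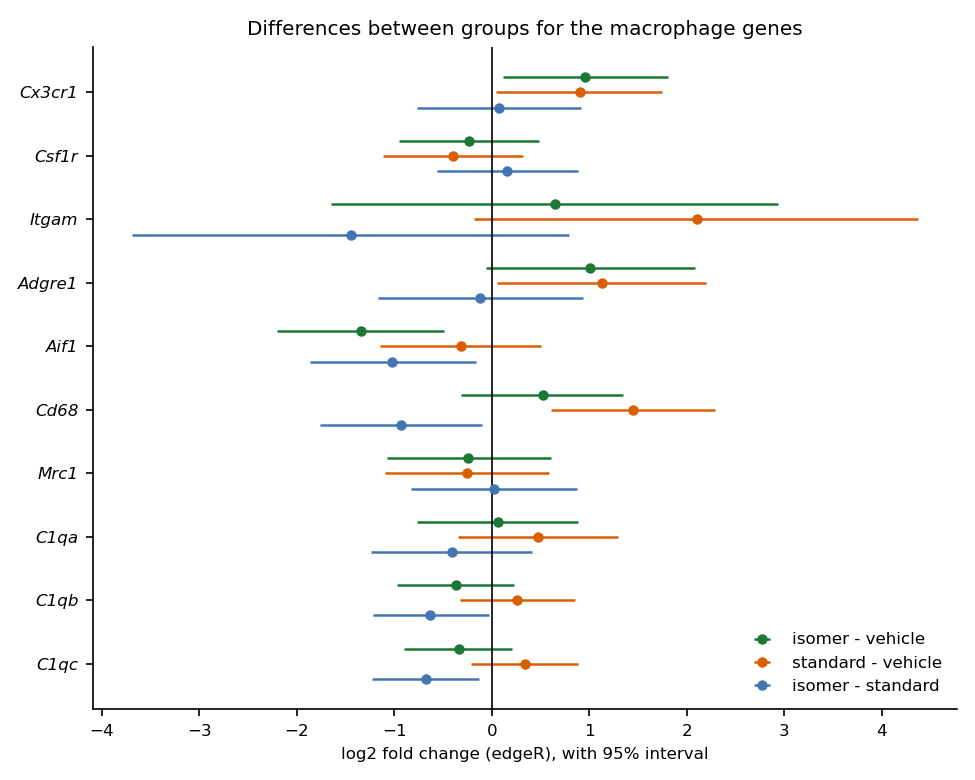
Log2 fold change of each macrophage gene from edgeR, with its 95% interval, for RvD6-isomer against vehicle, RvD6-standard against vehicle and RvD6-isomer against RvD6-standard. The intervals of Aif1 (RvD6-isomer) and Cd68 (RvD6-standard) lie farthest from 0 against vehicle, and that of Itgam is the widest.

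C1q starts the classical pathway by switching on the proteases C1r and C1s, which cleave C4 and C2 and so lead to C3. Among 12 partner genes of this pathway and its regulators, 0 were called by edgeR in any comparison. For RvD6-isomer against vehicle 1 of 12 had an unadjusted p below 0.05 and was lower, as were 7.3% of all genes. Against RvD6-standard 2 did, both lower, as were 4.64% of all genes. For RvD6-standard against vehicle 5 of 12 had an unadjusted p below 0.05, all higher, as were 7.63% of all genes. DESeq2 called 3, C3 and C5ar1 among them, where it called 1.92% of all genes. C3, the central component, had 18, 32, 7.22, 48.2 and 26.3 normalized counts in vehicle, 89.9, 224, 63.0, 66.9 and 232 in RvD6-standard and 35, 104, 18.3, 31 and 109 in RvD6-isomer. All RvD6-standard samples exceeded all vehicle samples, as in 2.25% of all genes (log2 fold change 2.35, SE 0.57, edgeR adjusted p = 0.114). C5ar1, the receptor for C5a that neutrophils carry, had means of 9.10 ± 7.97, 47.3 ± 24.4 and 18.8 ± 16.9 normalized counts in vehicle, RvD6-standard and RvD6-isomer (SD, n = 5).

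The partners of C1q that follow were closer to vehicle in RvD6-standard than C3 was. C1s1 and C4b had log2 fold changes of 0.97 and 0.69 in RvD6-standard and 0.61 and 0.35 in RvD6-isomer. C1ra had 0.78 and 0.07, C2 had 0.03 and 0.14, and C3ar1, the receptor for C3a, had 0.31 and -0.56 in the same order. The regulators Serping1, Cd55 and Cr1l had -0.14, 0.04 and 0.21 in RvD6-standard and -0.15, 0.29 and 0.13 in RvD6-isomer. Without vehicle replicate 4 and RvD6-isomer replicate 15, C1s1 had 1.11, C1ra -0.05 and Cr1l 0.05 in RvD6-isomer, and C3ar1 had 0.17 and Cd55 -0.06 in RvD6-standard. Without RvD6-standard replicates 8 and 9, C2 had 0.12, C3ar1 0.70, Serping1 -0.08, Cd55 0.01 and Cr1l 0.33 in RvD6-standard. Cd59a, a brake on the final membrane pore, was the only 1 of the 12 with an unadjusted p below 0.05 for RvD6-isomer against vehicle (log2 fold change -0.42, SE 0.17, edgeR adjusted p = 0.217), and it was -0.27 without vehicle replicate 4 and RvD6-isomer replicate 15.

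Tyrobp and Fcer1g encode adaptors that carry signals from macrophage surface receptors into the cell. Tyrobp had 46.9, 30.3, 92.3, 89.5 and 41.1 normalized counts in vehicle, 234, 196, 136, 115 and 263 in RvD6-standard and 19.2, 43.9, 47.5, 26.9 and 187 in RvD6-isomer. Fcer1g had 91.6, 65.0, 82.7, 89.5 and 69.1 in vehicle, 204, 137, 111, 108 and 203 in RvD6-standard and 19.2, 39.1, 38.3, 37.3 and 198 in RvD6-isomer. For both genes every RvD6-standard sample was above every vehicle sample, as in 2.25% of all genes. For Fcer1g 4 of 5 RvD6-isomer samples lay below every vehicle sample while replicate 15 lay above them all. With all samples edgeR called neither. Tyrobp differed between RvD6-standard and vehicle by 1.64 (edgeR adjusted p = 0.186, DESeq2 adjusted p = 0.0456), and RvD6-isomer differed from RvD6-standard by -1.56 for Tyrobp and -1.22 for Fcer1g. Without vehicle replicate 4 and RvD6-isomer replicate 15, a choice made after seeing the data, the difference between the lipids was -2.43 for Tyrobp (edgeR adjusted p = 0.0058) and -2.17 for Fcer1g (edgeR adjusted p = 0.00185), and both were called lower in RvD6-isomer. Tyrobp was then also called higher in RvD6-standard than in vehicle, at 1.82 (edgeR adjusted p = 0.0445). In that setting 158 of all genes were called between the lipids and 91 for RvD6-standard against vehicle. It removed the highest RvD6-isomer value of both adaptors, so the calls between the lipids are not independent of the choice. Neutrophils and monocytes express both adaptors. The sums of their marker genes are given above, and their part in these values was not tested.

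**Figure D5:**
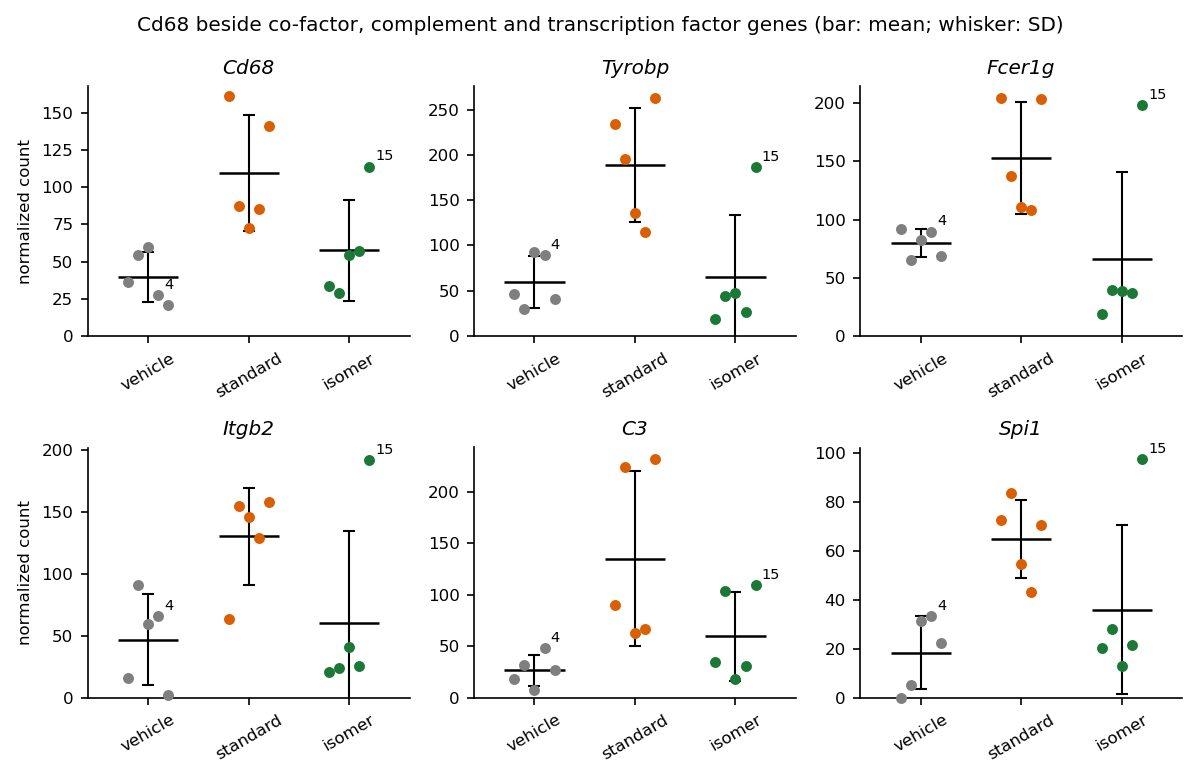
Normalized counts (linear axis from 0) of Cd68 beside 3 co-factor genes, the complement gene C3 and the transcription factor gene Spi1, with 1 point per TG, a bar at the mean and a whisker of 1 SD, which is cut where it would pass below 0; replicates 4 and 15 are numbered. RvD6-isomer replicate 15 lies within or above the range of the RvD6-standard samples for all 6 genes.

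Among 8 genes for transcription factors of myeloid cells, 7 were tested and 0 were called by edgeR in any comparison. For RvD6-isomer against vehicle 1 had an unadjusted p below 0.05 and was higher, as were 8.69% of all genes. For RvD6-standard against vehicle 2 were higher with such a p, against 7.63%. For RvD6-isomer against RvD6-standard 1 was lower, against 4.64%. DESeq2 called 1, 1 and 0 in the same order, and 1.92% of all genes for RvD6-standard against vehicle. Over all genes it called 920 for RvD6-isomer against vehicle and 185 for RvD6-isomer against RvD6-standard. The 3 with the highest level were Maf, Cebpb and Runx1, with log2 fold changes of 0.48, -0.48 and -0.05 for RvD6-isomer and 0.41, -0.60 and 0.01 for RvD6-standard against vehicle. Without vehicle replicate 4 and RvD6-isomer replicate 15, Cebpb was -0.87 and Runx1 -0.25 for RvD6-isomer and Runx1 was -0.12 for RvD6-standard, and without RvD6-standard replicates 8 and 9 Runx1 was 0.26 for RvD6-standard. Spi1, which encodes PU.1 and is named here because of its values, had 12.8 to 28.0 normalized counts in 4 RvD6-isomer samples and 97.5 in replicate 15, against 0 to 33.5 in vehicle and 43.4 to 83.8 in RvD6-standard.

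Among 18 other genes of resident macrophages and microglia, 0 were called by edgeR in any comparison, and the median log2 fold change was 0.13 for RvD6-isomer and 0.55 for RvD6-standard against vehicle. With an unadjusted p below 0.05 were 1, 6 and 4, and DESeq2 called 1, 4 and 2, for RvD6-isomer against vehicle, RvD6-standard against vehicle and RvD6-isomer against RvD6-standard. The 1 and the 4 were lower, as were 7.3% and 4.64% of all genes. For RvD6-standard against vehicle 13.6% of all genes had such a p, and DESeq2 called 1.92%. Over all genes DESeq2 called 920 for RvD6-isomer against vehicle and 185 for RvD6-isomer against RvD6-standard. The highest in TPM was Apoe, which carries lipids and which satellite glia also make, with 48160 ± 3753 normalized counts in vehicle, 37390 ± 4126 in RvD6-standard and 36580 ± 5808 in RvD6-isomer (SD, n = 5). All samples of both treated groups were below all vehicle samples, by a log2 fold change of -0.40 (SE 0.12, edgeR adjusted p = 0.104, DESeq2 adjusted p = 0.0282) for RvD6-isomer and -0.38 (SE 0.12, edgeR adjusted p = 0.191) for RvD6-standard. In either direction 4.88% of all genes separated RvD6-isomer from vehicle. For RvD6-standard the share of higher genes was 2.25%. The share of lower genes, which Apoe would have to be set against, is not reported here. The next in level were Lyz2, the lysozyme of phagocytes, at 0.17 and 1.75, and Gas6, a ligand of the receptors for dying cells, at 0.08 and -0.14 in the same order. Lyz2 had 5463 normalized counts in RvD6-isomer replicate 15 and 1213 to 1422 in the other 4 samples, against 1263 to 3153 in vehicle, and without that library its log2 fold change for RvD6-isomer against vehicle was -0.55. Without vehicle replicate 4 as well it was -0.28, and Lyz2 was then called in RvD6-standard against vehicle (2.01, edgeR adjusted p = 0.000685) and in RvD6-isomer against RvD6-standard (-2.29, edgeR adjusted p = 5.36e-05). That setting called 91 and 158 of all genes in these comparisons. It was chosen after the values were seen and removed the highest RvD6-isomer value of Lyz2, so the call between the lipids is not independent of the choice.

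The 10 genes did not rise and fall together across the 15 samples. Over the 45 pairs of members the median Pearson r of log2 CPM was 0.14, from -0.57 for Csf1r with Itgam to 0.67 for Cd68 with C1qb, and 16 pairs were below 0. The genes whose pattern was most like the mean of the members, by Pearson r over 15 samples, were Rpl22-ps1 (0.855), Glipr1 (0.836), Rpl9-ps4 (0.833), Gm13167 (0.831), Dkk1 (0.828), Gm6421 (0.814), Tspo (0.808) and Ms4a4c (0.806). After group means were removed only 1 of these 8, Rpl22-ps1, was still among the leading 8. Samples share group, depth and the other cells in the tissue, so these values describe the 15 libraries.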

How the data were processed

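Total RNA of each TG was sequenced by an adapted Smart-seq2 protocol, in which 1 ng of RNA is copied from its poly(A) tail and amplified, so the strand is not kept. The authors aligned reads with Rsubread to GRCm38 (GENCODE M22) and counted them on exons with featureCounts (1.5.0-p1 per the file header, Subread 1.6.5 per the submitters' processing notes). The deposited values are raw counts per gene, and reads on exons of several genes were not counted. Symbols came from GENCODE M21, which named 99.8% of the genes.

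Groups followed the labels. edgeR 4.0.16 (R 4.3.3, TMM, filterByExpr with a minimum count of 10 and a total of 15) was fitted to all 15 samples, calling genes at a threshold of 0.05 after Benjamini-Hochberg adjustment over 16567 genes. DESeq2 1.42.0 size factors divide the counts to give normalized counts. TPM used the exonic length in the table, and log2 CPM a prior count of 2. Intervals are 95%. In the likeness, each gene was compared with the mean z-score of the members. Other settings were DESeq2, RLE normalization, other filters, 2 groups per fit, a length trend removed (lowess, span 0.3) and single samples left out. Libraries 4 and 15, and 8 and 9, were left out after their values were seen. On counts simulated for RvD6-isomer against vehicle (16567 genes), edgeR recovered 30% of genes changed by log2 1 and 70% of those changed by log2 2. Named genes were the members, all ligand, co-factor and complement genes, genes called or with the highest TPM in the other lists, and the 8 most alike. Members and lists were chosen with earlier results of these data known. Protein sequences were not used here. Some genes of the lists entered the counts but are not reported here by name.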

Additional observations from a re-analysis of the deposited data

Results flagged for a closer look

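Within groups of 5 samples, the highest or lowest sample was set against the spread of the others (Dixon's ratio of the gap to the whole range, critical value 0.710). Among the 10 macrophage genes 0 of 30 groups held such a sample. Among the genes for ligands, co-factors, complement partners and transcription factors it was 8 of 78, and among the summed TPM of the 19 gene lists 13 of 57. Chance alone gives about 1 in 20 for independent values with a normal spread. Counts near 0 and sums taken from the same libraries are not such values, so these shares are a description.

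RvD6-isomer replicate 15 was the highest of its group for Itgb2 (192 normalized counts, others 20.3 to 41.1), Tyrobp (187, others 19.2 to 47.5), Fcer1g (198, others 19.2 to 39.1) and Spi1 (97.5, others 12.8 to 28.0). It was also highest for the summed TPM of the ligand and co-factor genes (232), perivascular and endoneurial macrophage genes (251), monocyte genes (239), neutrophil and marrow precursor genes (6282), T and NK cell genes (35), B cell genes (587) and erythroid genes (41380). Vehicle replicate 4 was highest of its group for the summed TPM of monocyte genes (256), neutrophil and marrow precursor genes (1560), B cell genes (399) and skeletal muscle genes (257).

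The remaining samples far from their group were vehicle replicate 2 (314 normalized counts of C4b, and 48.3 summed TPM of transcription factor genes), vehicle replicate 5 (74.8 normalized counts of Irf5), vehicle replicate 1 (0.721 normalized counts of Cebpa, which is 1 read, with 0 in the others), RvD6-isomer replicate 12 (436 normalized counts of C4b) and RvD6-standard replicate 9 (1163 summed TPM of satellite glia genes).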

How the results depend on the processing

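No setting changed the direction of Cd68 or Aif1 in any comparison, and of the fold changes of members recomputed with other settings 254 kept direction and side of the threshold, 3 newly passed it and 5 reversed. The 3 were Aif1 for RvD6-isomer against vehicle (-1.34, at least 10 counts in every sample) and Cd68 for RvD6-standard against vehicle in DESeq2 (1.47 with all samples, 1.46 with the 2 groups compared), so members called went from 0 to 1 there. The 5 were C1qa for RvD6-isomer against vehicle (-0.01 without vehicle replicate 4 and RvD6-isomer replicate 15) and, for RvD6-isomer against RvD6-standard, Mrc1 (-0.01 with at least 10 counts in every sample, -0.11 without vehicle replicate 4 and RvD6-isomer replicate 15, -0.14 without RvD6-standard replicates 8 and 9) and Adgre1 (0.12 without RvD6-standard replicates 8 and 9). Without those libraries Cx3cr1 and Csf1r gave 0.59 and 0.39 there. The cause was not tested.

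Genes called moved more. For RvD6-isomer against vehicle 111 became 315 with at least 10 counts in every sample, 920 and 979 in DESeq2 with all samples or the 2 groups compared, 63 with the length trend removed and 10 without vehicle replicate 4 and RvD6-isomer replicate 15. For RvD6-standard against vehicle 0 became 56 with no filter, 24 with at least 10 counts, 369 and 664 in DESeq2, 38 in edgeR with the 2 groups compared and 91 without vehicle replicate 4 and RvD6-isomer replicate 15, and partner genes called went from 0 to 4 and 5 in DESeq2 and 1 without those libraries. For RvD6-isomer against RvD6-standard 39 became 59, 23, 185, 182, 17 and 158 in the same order, and 2 without RvD6-standard replicates 8 and 9, and partner genes called went from 0 to 2 without vehicle replicate 4 and RvD6-isomer replicate 15.

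With each sample left out in turn, genes called ran from 0 (without RvD6-isomer replicate 11) to 229 (without RvD6-standard replicate 9) for RvD6-isomer against vehicle, from 0 to 51 (without RvD6-isomer replicate 15) for RvD6-standard against vehicle, and from 2 (without RvD6-isomer replicate 11, 13 or 14) to 156 (without RvD6-isomer replicate 15) for RvD6-isomer against RvD6-standard. Members called stayed at 0 throughout, and partner genes called ran from 0 to 0, 0 to 0 and 0 to 2, the 2 being reached without RvD6-isomer replicate 15. Median log2 fold changes of the members ran from -0.22 to 0.04, 0.29 to 0.54 and -0.66 to -0.36. Of the fold changes 436 kept their direction and 14 reversed, within C1qa for RvD6-isomer against vehicle (-0.13 to 0.18) and Cx3cr1 (-0.09 to 0.40), Csf1r (-0.09 to 0.34), Adgre1 (-0.41 to 0.14) and Mrc1 (-0.22 to 0.32) for RvD6-isomer against RvD6-standard. No paired analysis was possible because the groups share no replicate number.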
